A study of Mus musculus with 4 samples.

Results

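Of the macroH2A islands mapped in C2C12 myoblasts, 2855 lay over 2 or more separate islands of the myotube map, and these split islands are described here. They were taken from 26961 myoblast islands that lie on the 18 autosomes other than chromosome 15 and are at most 50 kb wide, out of 30016 myoblast islands in all. They were chosen by the measured positions of the islands in both maps, so their gaps and border shifts are given as descriptions and not as tested findings. An island is a stretch of enriched windows of 600 bp that the caller joined across short gaps. The myotube islands over a split island are called its pieces, and the stretches between neighbouring pieces are called gaps.

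The study mapped macroH2A by chromatin immunoprecipitation and sequencing (ChIP-seq) in C2C12, a mouse line of muscle precursors. One immunoprecipitation library came from myotubes at day 5 of differentiation medium, which holds 2% horse serum, and one from myoblasts at day 0, when that medium is added. The antibody label names macroH2A without a splice form, and the 2 input chromatin samples were not analysed here. The labels list no transgene or deletion for these cells, and each day is represented by 1 library, so there is no p-value for differentiation and intervals cover counting only.

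MacroH2A is a variant of histone H2A that carries a large globular macrodomain, which protrudes from the nucleosome. The variant is known for broad domains in repressed chromatin and on the inactive X chromosome. One splice form, macroH2A1.1, binds ADP-ribose and related products of NAD+ consumption, and its share among macroH2A1 transcripts is known to grow as muscle cells differentiate. Domains of this kind can grow or shrink at their ends, join with neighbours or break up inside, and the split islands are the cases in which the myotube map breaks a stretch that was continuous in myoblasts.

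The islands held 29619426 reads in the myotube list and 24365482 reads in the myoblast list (a ratio of 1.22). Reads outside islands are not in these totals, so they are not the depth of the libraries. The median split island had 1777 reads in its pieces at day 5 and 1221 reads at day 0. By the names of the lists, enriched windows were bridged over at most 1200 bp at a false discovery rate of 0.01. Neighbouring islands of both lists lay at least 1.8 kb apart, so a gap is 1.8 kb or longer and 1 window beyond what the caller bridges is enough to make it. A gap shows that no island was listed there in myotubes, not that macroH2A was absent.

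The longest gaps left pieces near both ends of a broad myoblast domain, which ranking islands of at most 50 kb by gap length favours. The longest gap opened on chromosome 5, in a myoblast island from 112333201 to 112375800 (mm9, as all positions here). At day 5 this stretch of 42.6 kb held a piece of 7.2 kb with 514 reads and a piece of 3.6 kb with 285 reads, against 3998 reads in the unbroken island at day 0. Between the pieces the gap ran from 112341001 to 112369800 and was 28.8 kb long. The pieces together had 73.98 reads per kb (68.9 to 79.3) at day 5, against 93.8 reads per kb (90.96 to 96.8) in the island at day 0. They covered 25.4% of the myoblast island.

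In the islands with the next 4 longest gaps too, the gap took most of the domain and pieces were left near its ends. On chromosome 9, the island from 49818001 to 49857000 had a gap of 28.2 kb and kept 23.1% of its width. On chromosome 17, the island from 8020801 to 8058600 had a gap of 21.0 kb, and its right piece ran 13.8 kb past the old border. On chromosome 6, the island from 101434201 to 101469000 had a gap of 20.4 kb. On chromosome 18, the island from 69115201 to 69144000 had a gap of 19.8 kb and met its left piece over 0.6 kb only. All 5 had fewer reads per kb in their pieces at day 5 than in the whole island at day 0, but on chromosomes 9 and 6 the 95% interval of the ratio took in equality. None of the 5 remained among split islands when only islands above a density floor of 70 reads per kb, raised at day 5 by the median ratio of 1.12, were kept. The myoblast island on chromosome 18, at 69.5 reads per kb, was itself below that floor. Those on chromosomes 5, 9 and 6 were also no longer split without the 25% of islands with fewest reads, and those on chromosomes 17 and 18 when a piece had to lie at least 50% inside.

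Breaking into many pieces was rare. Of the 2855 split islands, 2500 (87.6%) had 2 pieces, 310 (10.9%) had 3, 42 (1.47%) had 4 and 3 had 5. Islands with more pieces were wider, with medians of 15.6 kb for 2 pieces, 29.4 kb for 3, 37.5 kb for 4 and 45.0 kb for 5. The 3 islands with 5 pieces lay on chromosome 11 from 43561801 to 43606800, on chromosome 10 from 3270601 to 3319200 and on chromosome 4 from 130432801 to 130476600. Their gaps added up to 14.4, 20.4 and 12.6 kb. The chromosome 11 island was cut into pieces of 3.0, 7.8, 4.8, 12.6 and 11.4 kb, with 244, 621, 532, 1026 and 852 reads. The last of these reached only 0.6 kb into the old island and ran on for 10.8 kb.

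The 2 islands with 4 pieces and the most myoblast reads had finer cuts. On chromosome 17 from 46011001 to 46056600, the 3 gaps added up to 5.4 kb and the pieces held 4174 reads, against 4175 reads in the myoblast island. On chromosome 11 from 96256801 to 96304800, the gaps also added up to 5.4 kb, with 4283 reads in the pieces and 4105 reads in the myoblast island. The pieces covered 88.2% and 88.8% of these islands. The summed gap of the chromosome 17 island was 19200 bp with the density floor, and that of the chromosome 11 island was 9600 bp without the 25% of islands with fewest reads.

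**Figure D1:**
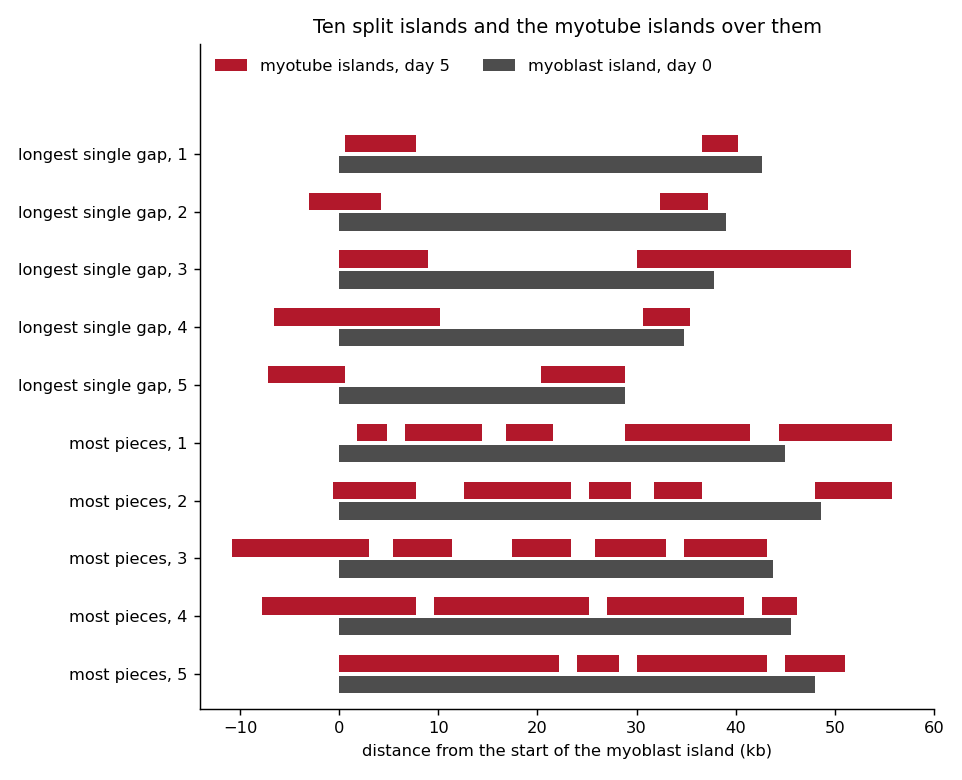
Position of the myotube islands at day 5 (upper bar of each pair) over 10 split myoblast islands at day 0 (lower bar), in kb from the start of the myoblast island. The upper 5 are those with the longest single gap, from 28.8 kb down to 19.8 kb, and the lower 5 those with most pieces, 5 in the first 3 and 4 in the others.

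The share of islands that were split was higher the wider the myoblast island. Of all 26961 islands considered, 10.6% were split (exact binomial interval 10.2 to 10.96%), 61.3% lay over exactly 1 myotube island and 28.1% over none. That interval covers counting only: under 5 of 7 other ways of making the lists or counting pieces the share was between 4.54% and 6.32%. Among islands of up to 5 kb, 42 of 7982 were split (0.526%). The share was 4.63% at 5 to 10 kb, 19.5% at 10 to 20 kb and 46.2% at 20 to 30 kb. It was 58.1% at 30 to 40 kb and 61.9% (55.6 to 68.0%) at 40 to 50 kb. Split islands had a median width of 16.8 kb and ranged from 3.0 to 49.8 kb. A wide island has room for more myotube islands, so these shares were set beside maps in which the match between days is broken.

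Such maps were made by moving the myotube islands along each chromosome by 100 equally spaced distances. The measured 2855 split islands compared with a mean of 925 in these maps, with 798 as the lowest and 1294 as the highest, so the measured number was 3.09 times the mean. Moves of only 200 to 2000 kb, which keep regional clustering, gave a mean of 1344 and a measured number 2.12 times as high. The number of myoblast islands that met any myotube island was also higher in the measured map, at 19386 against a mean of 5604. Among islands that met one, 14.7% were split in the measured map, against 16.5% in the moved maps (15.6 to 18.1%). The higher number of split islands thus went with a higher number of islands that met the myotube map at all, and not with a higher share split among them.

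That balance differed between narrow and wide islands. Of islands of 5 to 10 kb that met a myotube island, 6.85% were split, against 9.96% in moved maps (8.57 to 11.6%). Of those of 10 to 20 kb, 22.9% were split, against 24.4% (21.8 to 27.0%). Of those of 20 to 30 kb, 48.1% were split, against 41.7% (36.4 to 47.9%), so the measured share stood just above the highest of these maps, though inside the range of the shorter moves (up to 50.2%). At 30 to 40 kb the shares were 58.8% and 52.4%, and at 40 to 50 kb 62.2% and 57.8%, with the measured value inside the range of moved maps in both classes.

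**Figure D2:**
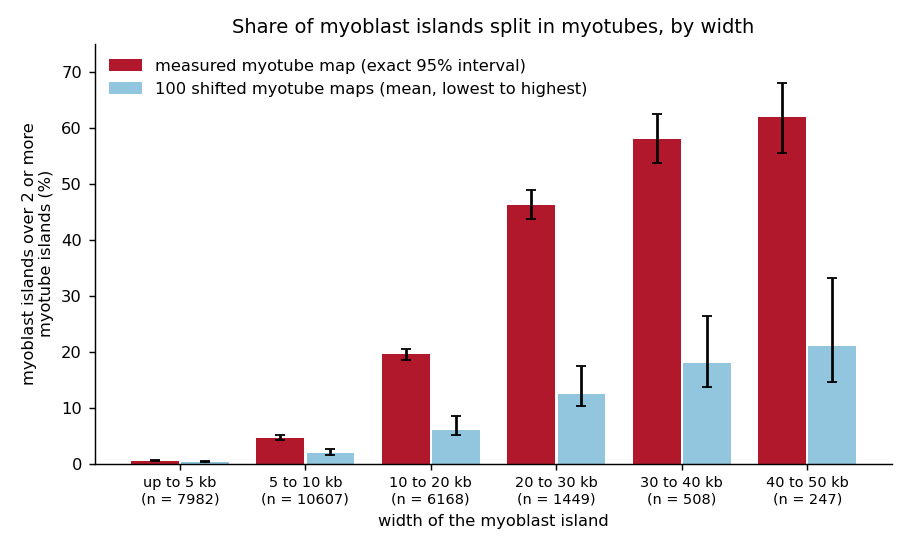
Percent of myoblast islands over 2 or more myotube islands by width class, for the measured myotube map (exact 95% intervals) and for 100 moved myotube maps (mean, lowest to highest). The measured share climbs from 0.526% to 61.9% and lies above the range of moved maps in every class but the narrowest.

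Most gaps were as short as the lists allow. The 2855 split islands had 3258 gaps, of which 1651 (50.7%, 48.9 to 52.4%) were 1.8 kb long, 19.1% were 2.4 kb and 8.99% were 3.0 kb. The median was 1.8 kb, the mean 3.05 kb and the 95th percentile 7.8 kb. Gaps of at least 5 kb numbered 415 (12.7%), gaps of at least 10 kb 83 (2.55%) and gaps of at least 20 kb 4. In 1366 split islands (47.8%) every gap was 1.8 kb long, and 406 (14.2%) had a gap of at least 5 kb. Joining myotube islands 1.8 kb apart left 1489 split islands with a median gap of 3.0 kb.

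The gaps took a modest part of most split islands. Per island they added up to a median of 2.4 kb, or 16.7% of its width, and in 101 islands (3.54%) they took more than 50%. Together they covered 9.93 Mb, which is 18.045% of the 55.0 Mb in split islands, while retreat at the outer borders took 4.11 Mb (7.47%) and 41.0 Mb (74.5%) stayed covered. Extension beyond the outer borders added 37.1 Mb, so the pieces in full, counted for each split island, came to 78.1 Mb. Gap centres lay at a median of 0.5 of the way along the island, with quartiles of 0.328 and 0.672. In moved maps the median position ranged from 0.48 to 0.52, so the measured position lay within that range.

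Gaps were shorter in the measured map than in moved maps. The 50.7% at 1.8 kb compared with 38.9% in moved maps (34.0 to 42.7%). Gaps of at least 5 kb made up 12.7% in the measured map, against 22.4% in moved maps (19.6 to 25.03%). Gaps that were closed between the days had much the same lengths as those opened. Of the 4245 gaps between myoblast islands that were closed within joining myotube islands of at most 50 kb, 51.8% were 1.8 kb long and 12.5% were at least 5 kb, and their mean was also 3.05 kb.

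**Figure D3:**
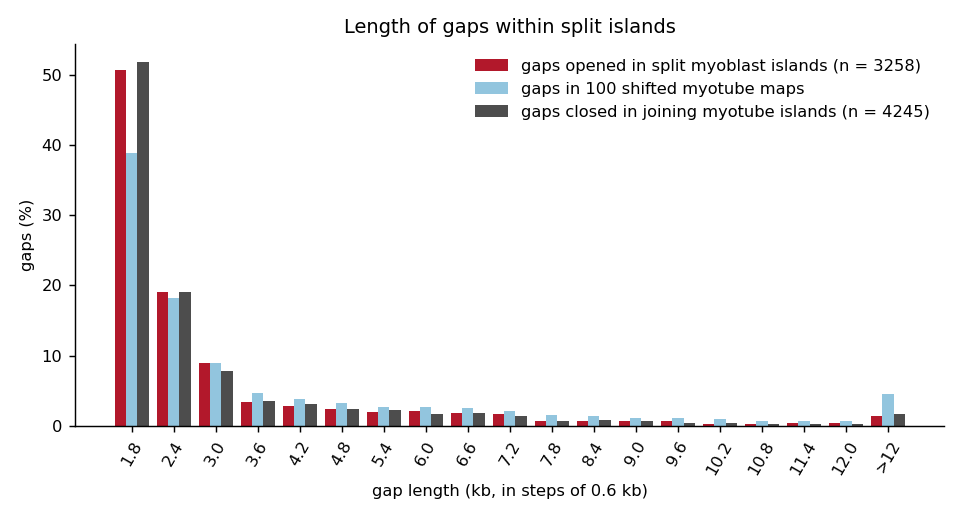
Length of gaps in steps of 0.6 kb, as percent of the gaps opened in split myoblast islands, of those in 100 moved myotube maps, and of those closed within joining myotube islands. Opened and closed gaps peak together at 1.8 kb, with 50.7% and 51.8%, and moved maps hold more long gaps.

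The 5 read-richest split islands were broad domains, and in 4 of them no gap was longer than 2.4 kb. First among them, with a width of 48.6 kb, came the island on chromosome 19 from 58479601 to 58528200. Its 3 pieces held 455, 940 and 2521 reads, 98.9 reads per kb together, against 5515 reads and 113 reads per kb in the myoblast island. Its gaps added up to 4.2 kb and its left border retreated by 4.8 kb. On chromosome 2, the island from 101564401 to 101613600 had 2830 reads in 3 pieces, against 4787 reads, with one gap of 9.0 kb. The island on chromosome 1 from 95064601 to 95111400 had 1 gap of 2.4 kb, with 4550 reads in myotubes against 4768 in myoblasts. A gap of 1.8 kb was the only one in the island on chromosome 11 from 105794401 to 105844200, with 4261 reads in myotubes against 4647 in myoblasts. On chromosome 10 between 76898401 and 76944600 a single gap of 1.8 kb came with a retreat of 8.4 kb at the right border and an extension of 16.8 kb at the left. Its pieces, extension included, held 4933 reads in myotubes, against 4605 in the myoblast island.

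Outer borders of split islands moved outward more often than inward. Of their 5710 outer borders, 3655 (64.0%) were extended in myotubes, 1295 (22.7%) had retreated and 760 (13.3%) had not moved. Where a piece had to lie at least 50% inside the myoblast island, which bars long extensions, 40.3% were extended and 40.2% had retreated. Over all myoblast islands that met a myotube island, 57.7% of borders were extended and 27.3% had retreated. Where a border of a split island retreated, the median shift was 1.8 kb, and where it was extended, 6.0 kb. Taking both borders together, the median split island reached 6.6 kb further in myotubes. Both borders retreated in 162 split islands (5.67%), against 7.31% over all islands that met the myotube map. In moved maps 21.8% of the borders of split islands had retreated, close to the measured share, but the median border shift was -4455 bp (-4800 to -4200), a longer extension than the measured -1800 bp.

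Borders also differed by width, so the sets were compared within width ranges. Among islands of 10 to 50 kb, 26.4% of borders of split islands had retreated, against 37.2% of borders of islands over 1 myotube island. Extended borders made up 59.6% and 48.5%, and islands with both borders retreated 6.98% and 15.7%. A retreat of 3 kb or more was seen at 10.7% and 21.1% of borders. In that range split islands were wider, with a median of 19.8 kb against 13.8 kb. At 20 to 50 kb the gap between the sets was smaller, with 30.9% and 35.4% of borders retreated. The median extension over both borders together was 6.6 and 1.2 kb at 10 to 20 kb, and 4.2 and 1.8 kb at 20 to 30 kb. The order was turned at 30 to 40 kb (4.2 and 6.0 kb) and at 40 to 50 kb (2.4 and 5.4 kb). No test was made of these differences.

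Outer borders stayed in place far more often than in moved maps. Within 1 window of 0.6 kb lay 26.4% of the outer borders of split islands, against 8.99% in moved maps (7.51 to 11.1%). For islands of 10 to 50 kb the shares were 27.7% for split islands and 27.5% for islands over 1 myotube island. The share of borders kept to the window thus differed little between islands that were split and islands over 1 myotube island, of which 15.7% retreated at both borders.

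**Figure D4:**
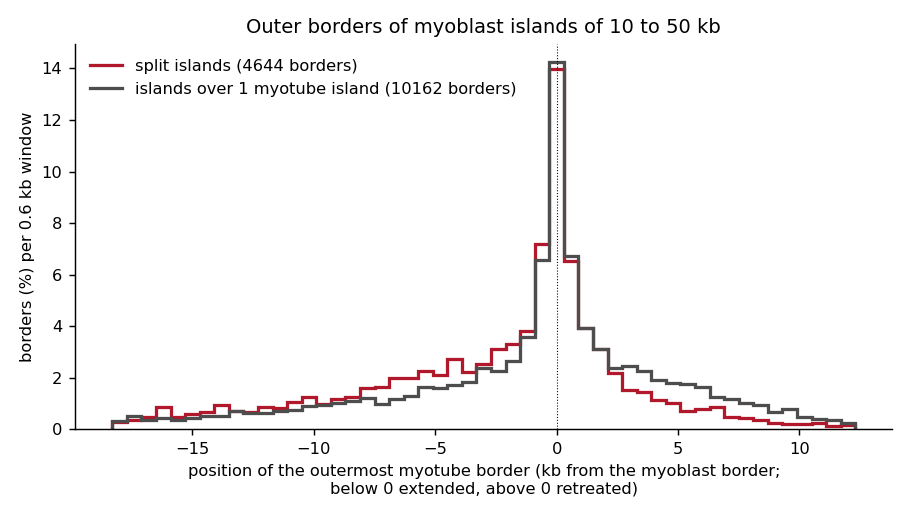
Shift of the outer borders of myoblast islands of 10 to 50 kb, in percent of borders per 0.6 kb window, for split islands and for islands over 1 myotube island; values below 0 are extensions and values above 0 are retreats. Both sets peak at 0, with 14.0% and 14.2% of borders, and split islands have fewer retreats of 3 kb or more (10.7% and 21.1%). The sets were formed by the number of pieces, which bears on where the outermost edges lie.

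A few split islands shrank from both ends or lost most of one side. The largest summed retreat was on chromosome 10 from 83739001 to 83788800, in a myoblast island of 49.8 kb. Its left border retreated by 9.0 kb and its right by 18.6 kb, and 3 pieces of 3.0, 7.2 and 4.2 kb with 266, 504 and 336 reads remained, against 4091 reads in the myoblast island. On chromosome 13 from 29238001 to 29284200, the right border retreated by 25.2 kb while the left moved out by 1.2 kb. On chromosome 5 from 24540001 to 24581400, the borders retreated by 5.4 and 17.4 kb. On chromosome 17 from 87297601 to 87346800 they retreated by 13.8 and 7.2 kb, and on chromosome 1 from 179386801 to 179428200 by 18 and 1.2 kb. In all 5, which were picked for their retreat, the retreat took more length than the gaps, which added up to between 2.4 and 7.8 kb. Over all split islands the gaps took more length, with 9.93 Mb against 4.11 Mb of retreat. The rule bears on that order, since every split island has a gap of at least 1.8 kb and none needs a retreat. In the 382 split islands with no extended border, retreat took 1.72 Mb and gaps 1.48 Mb.

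Most split islands were not simple breaks of one domain into several. In 1540 of them (53.9%, 52.1 to 55.8%) at least 1 piece also lay over another myoblast island, so the myotube map broke one myoblast domain and joined part of it to a neighbour. The other 1315 (46.1%) had pieces that met no other myoblast island. No such share is given here for islands over 1 myotube island or for moved maps, so shared pieces are not shown to be particular to split islands. Linked through shared pieces, the split islands fell into 2594 chains with 5958 myotube and 4748 myoblast islands. Of these chains, 1548 held more myotube than myoblast islands, 678 held equal numbers and 368 held fewer. The 1548 include the 1315 chains with 1 myoblast island, for which the rule fixes this by asking for 2 or more pieces. The most myoblast islands in a chain were 9, in 2 chains. One ran on chromosome 16 from 25336201 to 25506000, with 4 myotube islands and 3 of its myoblast islands split, and the other on chromosome 8 from 124563001 to 124681800, with 3 myotube islands and 2 split.

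A shared piece has to run past the border by at least the 1.8 kb between islands, so the border shifts of these kinds differ by construction. In one-to-several splits 34.1% of borders had retreated and 47.3% were extended, with a median extension of 0.6 kb over both borders together. Where a piece was shared, the median extension was 15 kb. The median one-to-several island had 1272 reads in its pieces, extensions included, and the median over the myoblast islands was also 1272 reads. Summed over all 1315, the pieces held 1962871 reads over 23.1 Mb and the myoblast islands 1982811 reads over 26.3 Mb.

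In the opposite direction, 3510 myotube islands of at most 50 kb on the same chromosomes lay over 2 or more myoblast islands, 1.23 times the number of split islands. Joining islands made up 13.2% of 26690 such myotube islands. They outnumbered split islands on all 18 chromosomes, by 1.08 times on chromosome 14 up to 1.51 times on chromosome 12.

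Some split islands stayed within their old outer borders, which with a gap inside fixes that they lost length. In 382 of them (13.4%, against 17.8% of all islands that met the myotube map) neither border was extended. Their pieces thus lay wholly inside the old footprint. Day 5 reads in the gaps and retreated ends are not in the lists, so the reads of the pieces cover only part of that footprint. The pieces of these 382 islands covered 6.11 Mb at day 5, against 9.31 Mb at day 0, or 65.6%. Gaps made up 46.3% of the lost length and border retreat the remainder. The pieces held 528937 reads and the myoblast islands 718356 reads, a ratio of 0.736, and 326 of the 382 (85.3%) had fewer reads at day 5. These counts set the kept part at day 5 against the whole island at day 0. Per kb, the pieces held 86.5 reads and the myoblast islands 77.1. Islands of 10 to 50 kb that lay over 1 myotube island within the old borders kept 62.6% of length and 0.724 times the reads, and 78.2% of them had fewer reads at day 5.

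Density at day 5 was taken over the called pieces alone, with gaps left out and extensions included, so it does not give the density over the old footprint. The pieces of split islands had a median of 83.1 reads per kb (5th to 95th percentile 72.1 to 103) at day 5, and the islands themselves 73.0 reads per kb (63.1 to 89.0) at day 0. The median log2 ratio of day 5 over day 0 was 0.19 (0.18 to 0.20), against 0.17 over all 19386 islands that met a myotube island, a fold of 1.12. Relative to that value, 180 split islands (6.30%) were above 0.3 on the log2 scale, against 7.76% of all, and 100 (3.50%) were below -0.3, against 7.58%. The median relative to all islands that met a myotube island was 0.02. It turned negative, at -0.0023, without the 25% of islands with fewest reads, and at -0.0098 with pieces at least 50% inside. In the other alternatives it stayed positive. The background of all islands holds many narrow islands with few reads. At 20 to 50 kb, 2.68% of split islands were above 0.3, against 7.43% of islands over 1 myotube island, and 4.83% were below -0.3, against 3.23%. At 10 to 50 kb the shares above 0.3 were 5.21% and 8.74%, and those below -0.3 were 3.66% and 3.39%.

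In wide split islands, the median density ratio of day 5 over day 0 was lower than in wide islands over 1 myotube island. The 95% intervals run over islands of 1 library per day, so their overlap is no test between the sets. Above 5 kb, they were apart at 30 to 40 kb and, in the opposite order, at 5 to 10 kb. At 40 to 50 kb, pieces of split islands had 87.6 reads per kb at day 5 and the islands 80.4 at day 0, a relative log2 ratio of -0.04 (-0.08 to -0.01). Islands of that width over 1 myotube island had 99.2 reads per kb at day 5 and 83.7 at day 0, with 0.06 (-0.05 to 0.12). At 30 to 40 kb the relative ratios were -0.02 (-0.05 to 0.00) for split islands and 0.07 (0.04 to 0.11) for those over 1 island. At 20 to 30 kb they were -0.003 (-0.013 to 0.016) and 0.02 (0.00 to 0.04). At 10 to 20 kb they were 0.03 and 0.04. At 5 to 10 kb they were 0.07 (0.038 to 0.084) and 0.02 (0.017 to 0.028), so the order was turned in the narrowest of these classes. The sets differ here in how far the pieces reach, since the pieces of a 5 to 10 kb split island added up to a median of 15.6 kb, more than the island itself.

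**Figure D5:**
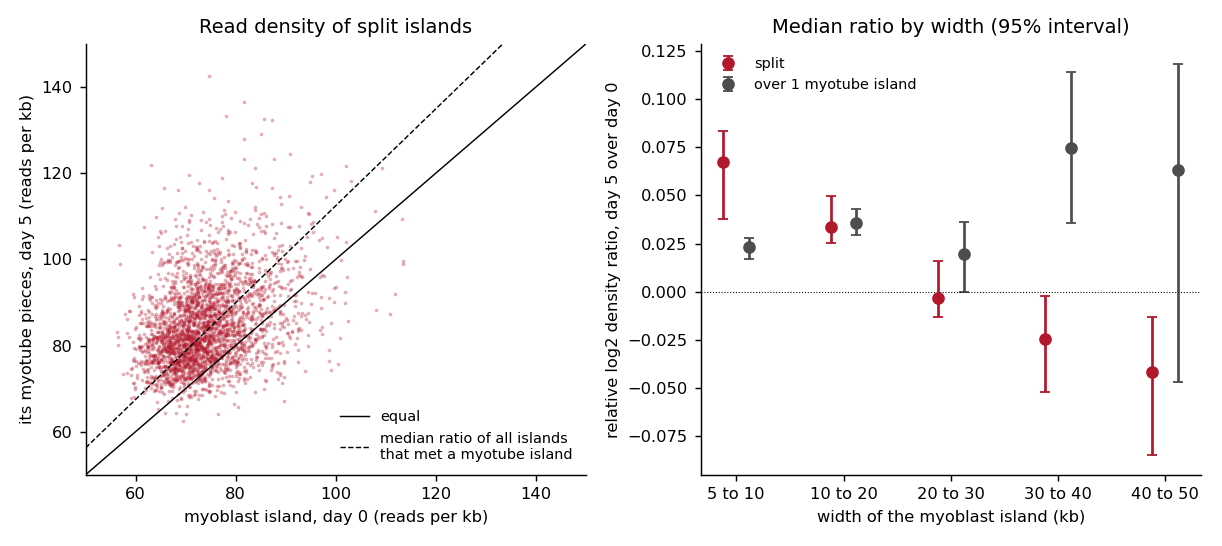
Left, reads per kb of the pieces at day 5 against reads per kb of the split island at day 0, with the line of equality and the median ratio of all islands that met a myotube island (1.12). Right, median relative log2 density ratio by width with its 95% interval; split islands go from 0.07 at 5 to 10 kb to -0.04 at 40 to 50 kb, and those over 1 myotube island from 0.02 to 0.06.

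Pieces beside long gaps were less dense than pieces beside short ones. Among split islands of 20 to 50 kb, the 272 with a gap of at least 5 kb had a median of 81.0 reads per kb in their pieces at day 5 and 75.3 at day 0. Their relative log2 ratio was -0.07 (-0.10 to -0.05). The 430 in which every gap was 1.8 kb had 88.9 reads per kb at day 5 and 77.2 at day 0, with a relative log2 ratio of 0.01 (-0.01 to 0.03). Islands with longest gaps of 2.4 to 4.8 kb stood between, at 83.8 and 74.7 reads per kb and -0.01. The differences are small beside the spread over split islands, whose relative log2 ratios had 5th and 95th percentiles of -0.27 and 0.32.

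Within a split island, the widest piece was the denser one less often than the narrowest. The widest piece had a median width of 13.8 kb and the narrowest 6.0 kb. Among 2798 islands with pieces of unequal width, the medians were 82.4 reads per kb in the widest and 83.8 in the narrowest piece, and the widest was denser in 1288 (46.0%). In 1030 split islands (36.1%) the widest piece was wider than the myoblast island itself.

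In the 3 islands with the highest density ratio, pieces reached far outside the old island. The highest ratio was on chromosome 4 from 117955801 to 117962400, in a myoblast island of 6.6 kb. One of its pieces was 52.2 kb wide with 6705 reads, against 417 reads in the myoblast island, and the log2 ratio of 0.95 (0.81 to 1.09) describes mostly that piece, of which 1.8 kb lay in the old island. On chromosome 19 from 34455001 to 34474800 the pieces had 143 reads per kb, against 74.7 at day 0, a log2 ratio of 0.93 (0.85 to 1.01). On chromosome 13 from 96340801 to 96349200 they had 103 reads per kb, against 56.7, a log2 ratio of 0.87.

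The lowest ratios were near -0.4 on the log2 scale. On chromosome 3 from 94169401 to 94189800 the pieces had 67.2 reads per kb, against 89.7 in the myoblast island, a log2 ratio of -0.42 (-0.53 to -0.31). On chromosome 9 from 57960601 to 57967800 the densities were 74.3 at day 5 and 99.03 at day 0, with -0.41 (-0.56 to -0.27). On chromosome 17 from 72313801 to 72351600 the 3 pieces had 75.8 reads per kb, against 101 in a myoblast island of 37.8 kb, with -0.41 (-0.48 to -0.33). This last island stayed within its old borders, so its lower density and its gaps of 8.4 kb in all lie in the same footprint.

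Split islands occurred on all 18 chromosomes, and their number mostly went with island widths there. Their share of islands ran from 5.09% on chromosome 7 (3.53 to 7.08%) to 12.9% on chromosome 11 (11.5 to 14.4%). Set against the number that the widths on each chromosome would give at the shares of all chromosomes together, chromosome 7 stood lowest at 0.811 times and chromosome 9 highest at 1.14 times. The median gap was 1.8 to 2.4 kb on each chromosome, and the median border was extended on all 18. Of 1823 windows of 1 Mb with an eligible island, 1065 (58.4%) held a split one and 176 held 5 or more. The highest numbers, named after their values were seen, were 13 of 42 islands on chromosome 10 from 96 to 97 Mb and 13 of 46 on chromosome 13 from 37 to 38 Mb.

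Split islands also lay close to other myoblast islands. The next myoblast island was a median of 2.4 kb away, against 3.0 kb for islands over 1 myotube island, and 86.3% and 77.1% had one within 10 kb. At 5 to 10 kb of width the shares were 80.9% and 74.9%, with medians of 2.4 and 3.0 kb. At 10 to 20 kb they were 83.9% and 82.0%, and at 20 to 30 kb 91.0% and 89.2%, closer together than over all widths. At 30 to 40 kb the order was turned, with 91.5% and 92.8%, and medians of 2.4 and 1.8 kb to the next island. At 40 to 50 kb the shares were 92.8% and 91.4%.

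The limits of the rule cut through similar islands. Just inside 50 kb, the island on chromosome 1 from 35958001 to 36007800 (49.8 kb) had 2 pieces with 90.7 reads per kb at day 5 and 85.6 at day 0. The island on chromosome 4 from 57149401 to 57199200, of the same width, had 4 pieces with 85.3 and 71.7 reads per kb. Just outside, the island on chromosome 1 from 39300001 to 39350400 (50.4 kb) had 2 pieces with 85.8 and 82.6 reads per kb. The island on chromosome 2 from 166362001 to 166412400, also 50.4 kb, had 4 pieces with 76.4 and 78.2 reads per kb. At the other limit, 327 split islands (11.5%) met one of their pieces over a single window of 600 bp, and 206 islands over 1 myotube island had a further myotube island directly beside them.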

How the data were processed

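Per the submitters' processing notes, CASAVA 1.4, Bowtie2 2.2.6, SICER 1.1 and MACS 1.4.2 were used with build mm9 (NCBIM37), without their roles. Each deposited list holds, for every island, the count of reads as a whole number, with no sign in the values of scaling by the authors. Whether input served as control, and how duplicates were handled, is not given in the sources used here. Positions fell on a grid of 600 bp windows and are printed 1-based. Some islands may be absent from the lists used.

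Overlap of 1 bp made a myotube island a piece. Density is reads per kb of all pieces in full over that of the myoblast island. Shares have exact (Clopper-Pearson) 95% intervals, medians order-statistic intervals, and reads exact Poisson or binomial intervals. Moved maps used fixed circular distances on the grid, with no random draw. Regions named were the 5 with the longest gap, most pieces (ties by more myoblast reads), most myoblast reads and largest retreat, the 3 highest and 3 lowest density ratios, and the 2 just inside and outside 50 kb. Members, lists and rules were chosen with earlier results of these data known. Gene and sequence content of the gaps was not analysed here, because the gene table at hand is for GRCm38.p6. Alternatives were other lists, overlaps, widths and floors. The code was tested on simulated data. Tables were computed in Python 3.11.15 (pandas 2.3.3 with NumPy 2.4.6), intervals in SciPy 1.17.1 and figures in matplotlib 3.10.9.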

Additional observations from a re-analysis of the deposited data

How the results depend on the processing

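Of 29 recomputed main values, 10 stayed within their 95% interval (for the number in moved maps, within 1.5 times), 19 moved and none reversed. Only a change of sign counted as reversed, which shares, gap lengths and numbers of islands cannot show. A border median that went to 0 bp counted as moved. The median log2 density ratio relative to all islands that met a myotube island is not among the 29. That relative ratio turned negative without the 25% of islands with fewest reads and with pieces at least 50% inside. For share split (main 10.6%), median gap (1.8 kb), median border retreat (-1800 bp, an extension) and median log2 density ratio (0.19), the values that moved were as follows. Without the 25% of islands with fewest reads, 9.55%, -3600 bp and 0.18. With islands within 5 kb joined in both lists, 4.54%, 7800 bp, -600 bp and 0.27. With myotube islands at the shortest spacing joined, 5.52%, 3000 bp (by construction, as the shortest gaps are gone) and 0.15. With pieces at least 50% inside, 4.98%, 0 bp and 0.17, since that rule bars long extensions. With no width limit, 11.4%. With a floor of 70 reads per kb, raised at day 5 by 1.12, 6.32%, -1200 bp and 0.23. With pieces that met no other myoblast island, 4.88% and 0 bp. The numbers of split islands were 1914, 702, 1489, 1342, 3113, 1074 and 1315 in that order, against 2855. Beyond these constructions, the cause was not tested. Moves of 200 to 2000 kb gave 1344 split islands, against 925. Of 115 recomputed gap sums of the 28 named islands within the width limit, 93 stayed within 1 window. In 53 further cases the island was not in the set of split islands. In 16 of these it was still split but left out, because a piece met another myoblast island. With the density floor, some of the named myoblast islands were themselves dropped. Named islands were not followed when islands within 5 kb were joined. Gene and sequence content of gaps and its alternative were not run. No paired analysis was possible because each day has 1 library.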
